A study of Mus musculus with 6 samples.

Results

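Genes of sphingosine-1-phosphate (S1P) and prostaglandin D2 (PGD2) signalling were examined in neural stem cells of the adult mouse. The set held 9 genes: the S1P receptors S1pr1, S1pr2 and S1pr3, the sphingosine kinases Sphk1 and Sphk2, the S1P lyase Sgpl1, the PGD2 synthase Ptgds and the PGD2 receptors Ptgdr and Ptgdr2. They were found by symbol among 18193 genes that had a probe set annotated to them alone, and they were represented by 16 of the 34945 such probe sets on the array. Of the 9 genes, 5 were bright enough to be tested among 11576 genes, and the other 4 are described from their values.

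The cells came from the ventricular-subventricular zone, the neurogenic layer along the lateral ventricles of the brain, and were separated by flow cytometry into 2 populations of 3 arrays each, labelled biological replicates. Activated stem cells carried a green fluorescent reporter under the GFAP promoter together with CD133 and the EGF receptor, and lacked CD24. Quiescent stem cells were selected for the same reporter and CD133 and against CD24, and their labels name no selection on the EGF receptor. The GFAP promoter is also active in astrocytes, so the reporter alone does not separate stem cells from them. The labels give no age beyond adult, and do not say how many animals went into a sample. Array numbers name replicates and have no order.

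S1P is a lipid made inside cells by phosphorylation of sphingosine, a breakdown product of ceramide, and is carried out of the cell to act on a family of G protein coupled receptors. It is removed by phosphatases, which return it to sphingosine, or by a lyase that cleaves it for good. PGD2 is the main prostaglandin of the brain. It is formed from arachidonic acid by cyclooxygenases and a terminal PGD2 synthase and acts on a pair of unrelated receptors, one that raises cyclic AMP and one that lowers it.

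Values are log2 MAS5 signals, the summary of a probe set's brightness as deposited by the authors. A difference is the activated mean minus the quiescent mean on that scale, and is given with its standard error (SE) from a limma fit over all tested genes. Genes with a Benjamini-Hochberg adjusted p under 0.05 were called. The background of an array is the 95th percentile of 27 control probe sets for bacterial transcripts. It was 4.60 ± 0.07 on activated and 5.67 ± 0.37 on quiescent arrays (SD, n = 3 each), and the hybridisation controls averaged 13.7 ± 0.05 and 14.3 ± 0.53 (two-sided exact permutation p = 0.1 for each, the smallest that 3 against 3 arrays allow). Precision is limited by there being 3 arrays a group. The 3′ to 5′ difference of Gapdh, a measure of RNA quality, was 1.37 ± 0.17 on activated and 2.05 ± 0.52 on quiescent arrays (exact permutation p = 0.1), and that of actin 0.07 ± 0.16 and -0.05 ± 0.16 (exact permutation p = 0.4). The part of these measures in the results was not tested. Of the sort markers, Egfr lay between 12.77 and 13.05 on activated and between 10.64 and 10.92 on quiescent arrays. Gfap read 5.91 to 7.90 on activated and 10.04 to 11.32 on quiescent arrays. Cd24a encodes CD24, against which both populations were selected. It read 13.36, 13.52 and 13.29 on activated and 7.99, 9.31 and 10.48 on quiescent arrays. Its RNA was thus high in activated cells and called higher there (difference 4.13), and the cause was not tested.

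Of the 5 genes tested, S1pr1, Sphk2 and Ptgds were lower in activated cells and 0 were higher. Among all tested genes 17.6% were called lower and 17.3% higher, 34.9% in either direction. All activated arrays lay below all quiescent arrays for S1pr1 and Sphk2, against 25.5% of tested genes, and 50.7% of tested genes did not overlap in either direction. On average 13 of the 16 probe sets were lower in activated cells. All activated arrays lay below all quiescent arrays for 6 of the 16, against 24.4% of all probe sets of a single gene. For 0 of the 16 did they lie above. Among the 6 below, only those of S1pr1 and Sphk2 were bright enough to be tested. Those of S1pr3, Ptgdr and Ptgdr2 had 2 or 3 activated arrays at background, and background was higher on quiescent arrays. The shares of all probe sets that were lower on average, or above, were not counted. With no filter on dim genes the median difference over all genes was -0.39, against 0.01 over tested genes. With dim genes included, a lean to lower signals was thus not particular to this set. The plot of every probe set by array shows S1pr1 and 1 probe set of Sphk2 well apart between the groups and far above background, while Sphk1, Ptgdr2 and most S1pr3 values lay near or under it.

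**Figure D1:**
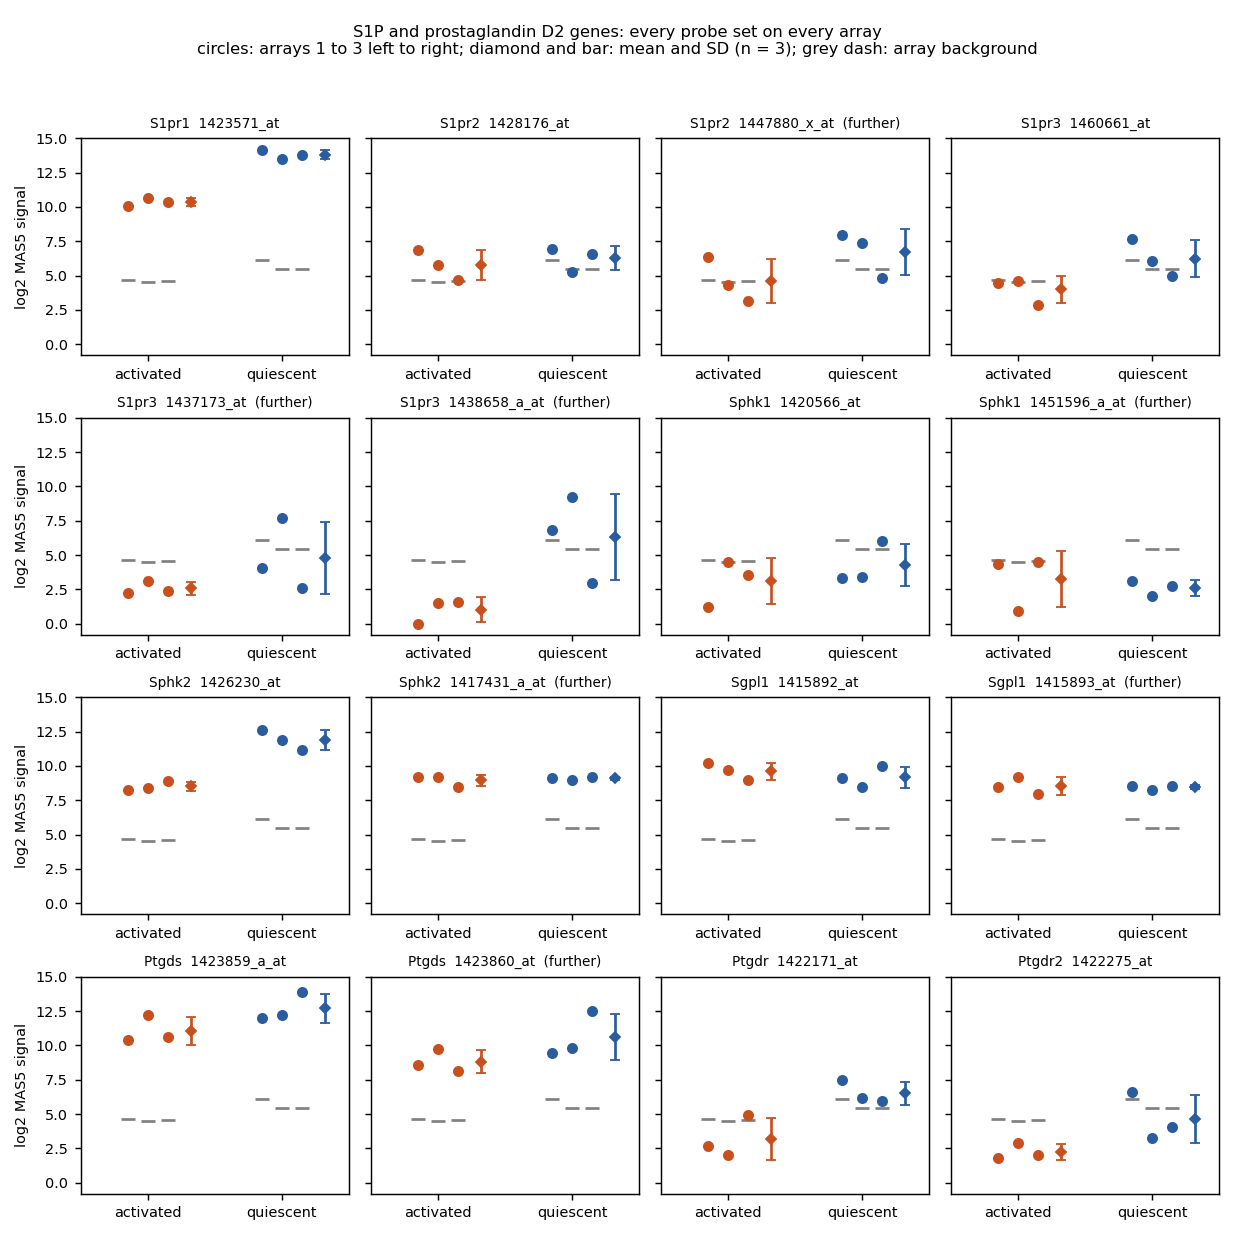
Log2 MAS5 signal of the 16 probe sets of the 9 genes on each array, activated on the left and quiescent on the right of each panel. Circles are arrays, diamonds with bars the mean and SD (n = 3), grey dashes the array background. The panel title gives the gene and probe set, and "further" marks a probe set that was not used for the gene. S1pr1 sits between 10.09 and 10.63 on activated and between 13.51 and 14.11 on quiescent arrays.

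S1pr1 encodes a receptor for S1P that couples to inhibitory G proteins and is known for its role in endothelium, lymphocyte traffic and astrocytes. Its probe set read 10.09, 10.63 and 10.33 on activated arrays 1, 2 and 3, against 14.11, 13.51 and 13.81 on quiescent arrays 1, 2 and 3. The lowest quiescent array was still above the highest activated one by several times the spread within either group. The difference was -3.46 ± 0.27 (SE), an 11-fold lower signal in activated cells, with a 95% interval of -4.05 to -2.87 (adjusted p = 3.26e-05). Only 2.96% of tested genes had a lower difference. In whole populations of sorted cells, fewer cells that express a gene and less of its RNA per cell cannot be told apart.

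Endothelial cells express S1pr1, and their markers moved the same way. Of 11 endothelial markers found on the array, 6 were tested, 4 of those were lower in activated cells and 0 higher. Their summed linear signal was 389 to 449 on activated and 1926 to 5793 on quiescent arrays. Cldn5, a tight junction protein, read 4.86, 5.80 and 3.84 on activated and 9.15, 9.94 and 8.09 on quiescent arrays. The endothelial sum was highest on quiescent array 2, on which S1pr1 was lowest of the 3 quiescent arrays. On activated arrays 4 of the 11 endothelial markers were at background on every array, while S1pr1 stayed above 10 on the log2 scale. The astrocyte and quiescent stem cell markers, all 15 of them lower in activated cells, summed to 41065 to 49862 on activated and 177571 to 289552 on quiescent arrays. The part of either list in the S1pr1 difference was not tested.

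S1pr2 encodes an S1P receptor that couples to several classes of G protein. The probe set used for the gene read 6.86, 5.79 and 4.70 on activated arrays, against 6.95, 5.28 and 6.60 on quiescent arrays, close to background in both groups. The arrays overlapped, and the difference of -0.49 ± 0.78 (SE) did not pass the test (adjusted p = 0.646). Its 95% interval ran from -2.21 to 1.23 and includes signals that are lower, equal or higher in activated cells. The mean over the 6 arrays was 6.03, just above the 6.02 required for testing. A further probe set read 6.33, 4.30 and 3.18 on activated and 7.92, 7.40 and 4.82 on quiescent arrays, which overlapped as well.

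S1pr3, an S1P receptor known from astrocytes and vascular smooth muscle, was too dim to be tested by the same standard. The probe set that stood for the gene read 4.46, 4.64 and 2.87 on activated arrays and 7.65, 6.07 and 5.01 on quiescent arrays. The groups did not overlap, but 2 activated arrays and 1 quiescent array were at background. The probe set 1438658_a_at read 0, 1.54 and 1.57 on activated arrays and 6.82, 9.21 and 2.99 on quiescent arrays. With each probe set of a single gene tested and no filter on dim signals, 12.4% of 34945 were called lower, and 1438658_a_at was among them (-5.30 ± 1.42 (SE), adjusted p = 0.0199). Since all 3 activated arrays were at background, the fold is a lower bound, the quiescent mean against the activated arrays with values under background raised to it. By this measure the signal was at least 3.35-fold lower in activated cells. Leaving out activated array 1 ended this call at an adjusted p of 0.0726. So did leaving out quiescent array 1, at 0.0653, or quiescent array 2, at 0.0827.

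Quiescent array 2 was the highest for 2 of the 3 S1pr3 probe sets, 1438658_a_at and 1437173_at. The probe set 1437173_at read 7.71 there and 2.57 and 4.06 on the other quiescent arrays, against 2.25 to 3.14 on activated arrays. The third probe set was highest on quiescent array 1. The pericyte and smooth muscle markers had their largest sum on quiescent array 2 also, at 9637, against 5649 and 5692 on the other quiescent arrays and 489 to 668 on activated arrays. Of 9 such markers, 5 were tested, 4 were lower in activated cells, and 3 were at background on all activated arrays. Most of the 9 were highest on quiescent array 2 among quiescent arrays, but Pdgfrb, the brightest, was highest on array 3 (11.16, 11.84 and 12.05). The endothelial sum was also highest on quiescent array 2, as given above. The part of any of these cells in the S1pr3 values was not tested.

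The remaining receptors of the family, S1pr4 and S1pr5, are not among the 9 genes but complete the picture. S1pr5, known from oligodendrocytes and natural killer cells, read 6.60, 6.58 and 1.05 on activated arrays, against 10.98, 9.14 and 11.36 on quiescent arrays. It was at least 23.7-fold lower in activated cells (adjusted p = 0.0066), with activated array 3 at background. Markers of mature oligodendrocytes were lower in all 11 cases tested, and summed to 2457 to 6465 on activated and 22696 to 89044 on quiescent arrays. Within the quiescent group S1pr5 and the oligodendrocyte sum had the same order of arrays, lowest on array 2 and highest on array 3. On activated arrays the order differed. The sum was 2769, 6465 and 2457, highest on array 2, while S1pr5 was nearly equal on arrays 1 and 2. Both were lowest on activated array 3. The part of oligodendrocytes in the S1pr5 difference was not tested. S1pr4, a receptor of blood cells, read 5.85, 4.98 and 2.76 on activated and 7.48, 4.53 and 7.25 on quiescent arrays, which overlapped.

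Sphk1 and Sphk2 encode the kinases that make S1P from sphingosine, Sphk1 acting mainly in the cytosol and at the plasma membrane and Sphk2 at the nucleus and internal membranes. Sphk1 was at or near background. Its probe sets read 0.92 to 4.48 on activated arrays, all of them at background, and 2.00 to 6.03 on quiescent arrays, where 1 of the 6 values was above background. No direction can be read from signals this low.

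Sphk2 was measured by a pair of probe sets that behaved differently. The brighter one, 1426230_at, read 8.22, 8.40 and 8.90 on activated arrays, against 12.64, 11.88 and 11.13 on quiescent arrays. These groups did not overlap, and the signal was 10.4-fold lower in activated cells, a difference of -3.37 ± 0.41 (SE; 95% interval -4.27 to -2.48, adjusted p = 0.000207). The other one, 1417431_a_at, read 9.17, 9.21 and 8.45 on activated arrays, against 9.13, 8.97 and 9.21 on quiescent arrays. Here the groups overlapped and the difference was -0.16 ± 0.37 (SE), which did not pass when each probe set was tested without a filter (adjusted p = 0.787). The signal of the first less that of the second, taken within each array, was -0.95, -0.81 and 0.46 on activated and 3.50, 2.91 and 1.91 on quiescent arrays. The activated mean of this quantity less the quiescent mean was -3.21, with no overlap between the groups (two-sided exact permutation p = 0.1, the smallest possible, or 0.6 adjusted over the 6 genes with several probe sets). For the other 5 genes the same comparison overlapped between groups. Which transcripts each Sphk2 probe set detects is not given in the sources used here, so the lower signal of Sphk2 belongs to 1426230_at and not to the gene as a whole.

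RefSeq lists 2 transcription starts for Sphk2, and the 250 bases before each are shown because a gene with several starts makes several transcripts. Both lie on the minus strand of mouse build GRCm38.p6, at chr7:45718003-45718252 for the upstream start and chr7:45715208-45715457 for the downstream start. Capitals mark the motifs that were found.
Sphk2 upstream start: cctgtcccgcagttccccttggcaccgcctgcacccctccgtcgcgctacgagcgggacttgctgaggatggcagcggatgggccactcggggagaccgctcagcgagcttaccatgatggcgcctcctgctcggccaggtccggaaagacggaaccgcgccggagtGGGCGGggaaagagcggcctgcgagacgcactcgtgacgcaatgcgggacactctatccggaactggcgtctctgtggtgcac
Sphk2 downstream start: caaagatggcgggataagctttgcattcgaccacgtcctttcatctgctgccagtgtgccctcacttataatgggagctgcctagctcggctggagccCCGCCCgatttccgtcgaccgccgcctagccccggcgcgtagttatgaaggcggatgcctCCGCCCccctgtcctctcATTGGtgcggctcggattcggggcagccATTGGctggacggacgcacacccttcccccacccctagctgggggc
Both windows are rich in G and C (67.6% for the upstream and 64% for the downstream start, against a median of 52.4% over 32851 RefSeq windows of the same length). The upstream window holds 27 CpG pairs and the downstream one 20, against a median of 6. The GC box GGGCGG, counted on both strands, occurs once before the upstream start and 2 times before the downstream start, and is present in 32.7% of all windows. CCAAT occurs 2 times before the downstream start and in 33.8% of all windows. TATAAA, TGACGTCA and CACGTG were also searched on both strands and have no match in these windows. The motifs did not overlap each other, and a match is a description of the letters, not a site of binding. The sequence table held windows for 8 of the 9 genes, the exception being S1pr1.

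Sgpl1 encodes the lyase that degrades S1P irreversibly. Its signal was well above background and did not differ between groups beyond the spread of the arrays. The probe set used read 10.20, 9.70 and 8.96 on activated arrays, against 9.13, 8.44 and 9.96 on quiescent arrays. The groups overlapped, with a difference of 0.44 ± 0.47 (SE; 95% interval -0.60 to 1.49, adjusted p = 0.486). The interval excludes neither equal signals nor a signal more than 2-fold higher in activated cells. The further probe set read 8.49, 9.23 and 7.94 on activated and 8.55, 8.28 and 8.53 on quiescent arrays, overlapping too.

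Of 13 listed genes that make, export or break down S1P, 11 were tested, and 5 were lower and 0 higher in activated cells. Among all tested genes 17.6% were lower and 17.3% higher. The median difference was -1.27, against 0.01 over all tested genes. Plpp3, a lipid phosphate phosphatase of the cell surface that can remove the phosphate of S1P, read 11.41, 12.02 and 12.30 on activated arrays and 14.65, 14.40 and 14.31 on quiescent arrays. That is a difference of -2.54 ± 0.27 (SE, adjusted p = 0.000114), and both of its probe sets were lower. Plpp1, a related phosphatase, differed by -2.17 ± 0.48 (adjusted p = 0.00597), and Sgpp1, the S1P phosphatase of the endoplasmic reticulum, by -1.27 ± 0.33 (adjusted p = 0.0138). With Sphk2 these were the 4 largest differences among the called genes of the list. The count fell to 3 without activated array 2, to 3 with arrays centred on their median and to 2 with arrays scaled to their hybridisation controls.

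**Figure D2:**
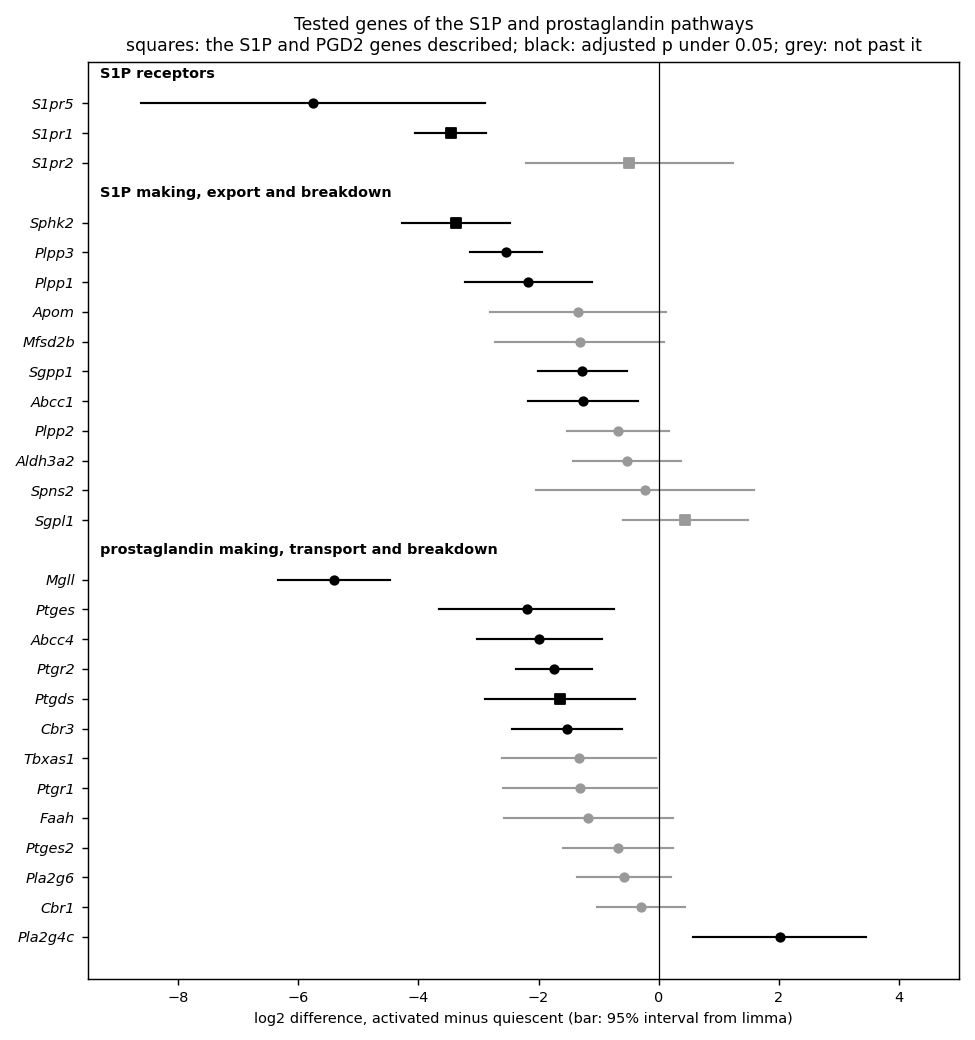
Log2 difference, activated minus quiescent, of each tested gene of 3 pathway lists, with 95% intervals from the limma fit. Squares are genes of the set of 9, circles other genes, and black marks an adjusted p under 0.05. S1pr5 (-5.75), Mgll (-5.41) and S1pr1 (-3.46) lie farthest to the left, and Pla2g4c (2.01) is the only black point to the right of 0.

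The lists of sphingolipid metabolism, which supplies sphingosine, held more genes lower than higher. In the synthesis of sphingolipids and ceramide 8 of 17 tested genes were lower and 0 higher (median -0.78), against 17.6% and 17.3% of all tested genes. The largest differences were those of Ugt8a, the galactosyltransferase of myelin lipid synthesis (-4.34 ± 0.59, adjusted p = 0.000412), and Fa2h, which hydroxylates myelin fatty acids and whose arrays overlapped (-4.10 ± 1.12, adjusted p = 0.0167). Both are genes of mature oligodendrocytes, whose markers were lower on the same arrays, as given above, and Ugt8a is itself 1 of those markers. Degs1, the desaturase that forms ceramide, differed by -2.78 ± 0.28 (adjusted p = 9.22e-05) and Sgms1, a sphingomyelin synthase, by -2.25 ± 0.70 (adjusted p = 0.0304). This count was 2 without activated array 1 or activated array 3, 5 without activated array 2, quiescent array 1 or quiescent array 2, and 3, with 1 gene higher, either on median-centred arrays or on arrays scaled to the hybridisation controls.

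In sphingolipid breakdown 10 of 15 tested genes were lower and 0 higher (median -1.46), against 17.6% and 17.3% of all tested genes. The lower count was 6 without activated array 1 or without quiescent array 1. It was 4 on median-centred arrays or on arrays scaled to the hybridisation controls. Smpd1, the acid sphingomyelinase, differed by -2.39 ± 0.35 (adjusted p = 0.000585) and Psap, the precursor of the saposin activators, by -2.27 ± 0.31 (adjusted p = 0.000428). Arsa, arylsulfatase A, differed by -2.69 ± 0.51 (adjusted p = 0.00273). Neu1, a lysosomal sialidase, was at least 6.25-fold lower (adjusted p = 0.0467), but its 3 probe sets differed by -3.49 to -0.15 and 0 of them passed when each was tested with no filter.

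Ptgds encodes lipocalin-type PGD2 synthase, a secreted enzyme that is abundant in leptomeninges, choroid plexus and oligodendrocytes. Its probe set 1423859_a_at read 10.37, 12.19 and 10.59 on activated arrays, against 11.99, 12.20 and 13.90 on quiescent arrays. Activated array 2 lay above quiescent array 1, so the groups overlapped. The difference was -1.64 ± 0.56 (SE), a 3.12-fold lower signal in activated cells, and passed by a small margin (95% interval -2.89 to -0.40, adjusted p = 0.0433). The further probe set read 8.57, 9.75 and 8.14 on activated and 9.48, 9.81 and 12.50 on quiescent arrays, and its difference of -1.78 ± 0.70 did not pass (adjusted p = 0.0916 with each probe set tested and no filter). The call of 1423859_a_at was lost with single arrays left out, the adjusted p being 0.15 with activated array 1 left out, 0.14 with activated array 3, 0.0608 with quiescent array 2 and 0.103 with quiescent array 3.

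Markers of the cells known for Ptgds did not all share its order of arrays. The median of the 11 mature oligodendrocyte genes was 6.00, 7.68 and 5.64 on activated arrays and 11.55, 10.27 and 12.43 on quiescent arrays. It was highest within each group on the array where both Ptgds probe sets were highest. The order of the other arrays was turned round against 1423859_a_at in both groups, and against 1423860_at on quiescent arrays only. Ttr, the transthyretin of choroid plexus, read 5.11, 13.62 and 3.88 on activated arrays and 10.52, 11.02 and 13.77 on quiescent arrays. It too was highest on activated array 2 and quiescent array 3, as the plot of Ptgds beside these markers shows. Ttr had the order of 1423860_at in both groups, and that of 1423859_a_at on quiescent arrays only. Of 7 choroid plexus markers 3 were tested and 0 passed, and their sum ran from 304 to 12884 on activated and from 2145 to 14587 on quiescent arrays, nearly all of it Ttr where the sum was high. The other tested markers did not share the order of Ttr. Kcnj13 was highest on activated array 1 (7.72) and quiescent array 2 (9.91). Otx2 was highest on activated array 3 (7.43) and quiescent array 3 (6.32). The 10 leptomeningeal markers summed to 575, 542 and 508 on activated and 3404, 2158 and 2047 on quiescent arrays, highest on array 1 of each group and lowest on quiescent array 3, where Ptgds was highest. Of these 10 genes 4 were tested, and the collagens Col1a1 and Col1a2 were lower. The other tested genes, Pdgfra (1.40) and Igf2 (-1.41), were not called. Ogn, too dim to be tested, went the other way. It read 7.59, 6.24 and 7.30 on activated and 4.47, 5.28 and 4.77 on quiescent arrays, where it was at background. Col1a1 read 4.86, 5.29 and 5.80 on activated and 11.22, 9.20 and 9.63 on quiescent arrays, while Lum and Col3a1 were at background on all arrays. The part of these cells in the Ptgds values was not tested.

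**Figure D3:**
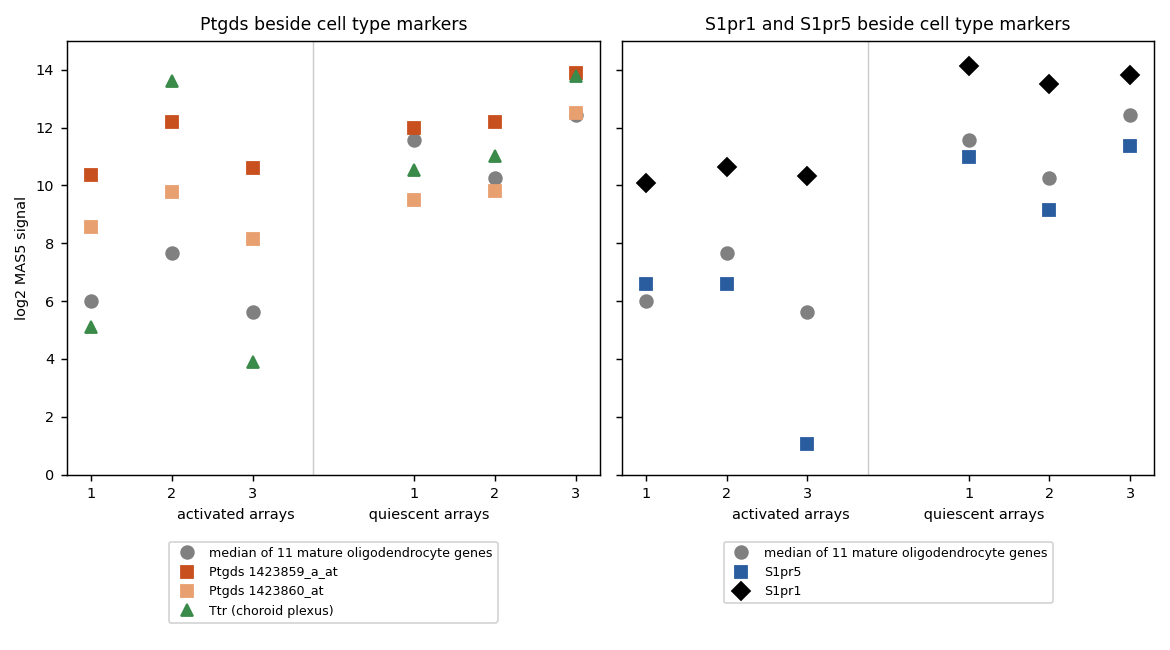
Log2 MAS5 signal on activated arrays (left of the grey line) and quiescent arrays (right of it). The left panel sets both Ptgds probe sets beside Ttr and the median of 11 mature oligodendrocyte genes, and the right panel sets S1pr1 and S1pr5 beside the same median. On activated array 2 Ptgds (12.19) and Ttr (13.62) are both at their highest of the activated group, and S1pr1 runs from 10.09 to 10.63 over the 3 activated arrays.

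The 250 bases before the RefSeq start of Ptgds, at chr2:25469750-25469999 on the minus strand of GRCm38.p6, are shown because the window differs from those of Sphk2.
Ptgds start: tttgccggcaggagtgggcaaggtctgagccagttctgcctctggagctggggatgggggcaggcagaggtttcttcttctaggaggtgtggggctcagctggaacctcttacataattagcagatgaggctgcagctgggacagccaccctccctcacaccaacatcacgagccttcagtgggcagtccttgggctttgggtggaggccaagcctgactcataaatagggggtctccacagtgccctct
It holds 2 CpG pairs, as few as or fewer than which 29.0% of all windows hold, and none of the 5 motifs searched.

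Ptgdr encodes the PGD2 receptor that raises cyclic AMP. It was too dim to be tested by the standard used for the other genes, at 2.64, 2.03 and 4.90 on activated arrays and 7.49, 6.15 and 5.92 on quiescent arrays. The groups did not overlap. All quiescent arrays were above background and 2 of the 3 activated arrays were at it, so that the signal was at least 3.54-fold lower in activated cells. With each probe set tested and no filter, the difference of -3.33 ± 1.00 (SE) was called (adjusted p = 0.0332). That call was lost without any of activated arrays 1 and 2 and quiescent arrays 1 and 2, one at a time (adjusted p = 0.0705 to 0.116), and on arrays scaled to the hybridisation controls (adjusted p = 0.0806).

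Ptgdr2 encodes the PGD2 receptor that couples to inhibitory G proteins and is known from lymphocytes and eosinophils. It read 1.80, 2.87 and 2.04 on activated arrays, all at background, and 6.60, 3.27 and 4.09 on quiescent arrays, of which only array 1 was above background. The arrays did not overlap, yet the difference of -2.42 ± 1.09 did not pass without a filter (adjusted p = 0.137). The background was higher on quiescent than on activated arrays, as given above, and its part in the Ptgdr2 values was not tested.

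None of the 9 prostaglandin receptors on the list was bright enough to be tested. Besides the receptors of PGD2, the list held Ptger1, Ptger2, Ptger3 and Ptger4, the receptors of prostaglandin E2, with Ptgfr, Ptgir and Tbxa2r. Tbxa2r, the thromboxane receptor, read 4.50, 4.08 and 6.21 on activated and 7.77, 6.68 and 6.51 on quiescent arrays, without overlap (adjusted p = 0.0953 with no filter). Ptgir, the prostacyclin receptor, read 4.99, 4.29 and 3.74 on activated and 5.67, 6.16 and 5.88 on quiescent arrays, also without overlap (adjusted p = 0.195). Ptger2 and Ptger3 were at background on all 6 arrays. For Ptgfr 1 of 5 probe sets passed with no filter (-3.33, adjusted p = 0.0266), with all arrays of both groups at background. The probe sets of Ptger1 differed by -2.74 and 0.47 and those of Ptger4 by 0.42 and 1.37, and 0 of these passed.

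Genes that make, carry and degrade prostaglandins were lower in 6 of 13 tested cases and higher in 1 (median -1.32). The shares among all tested genes were 17.6% lower and 17.3% higher. Mgll, the lipase that releases arachidonic acid from an endocannabinoid, read 6.44, 6.69 and 5.76 on activated and 12.26, 11.33 and 11.53 on quiescent arrays, a difference of -5.41 ± 0.42 (SE, adjusted p = 3.42e-05). All 4 of its probe sets were lower, with differences of -6.19 to -5.25. Ptges, a terminal synthase of prostaglandin E2, differed by -2.20 ± 0.66 (adjusted p = 0.0251), the exporter Abcc4 by -1.99 ± 0.47 (adjusted p = 0.00835) and the reductase Ptgr2 by -1.75 ± 0.28 (adjusted p = 0.00109). Pla2g4c, a phospholipase A2, was at least 2.87-fold higher (adjusted p = 0.0344), with 2 quiescent arrays at background, and was the exception in direction. Its 2 probe sets differed by 0.27 and 2.01, and 0 of them passed when each was tested with no filter. Without activated array 3 the count of lower genes was 3, as it was on median-centred arrays, and on arrays scaled to the hybridisation controls it was 1. The count of higher genes was 0 when any array other than quiescent array 1 was left out.

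G proteins, adenylyl cyclases, arrestins and receptor kinases, which pass on the signal of all these receptors, moved both ways. Of 31 tested genes 7 were higher and 8 lower in activated cells, against 17.3% and 17.6% of all tested genes. The median was 0.17, near that of all genes. The higher genes were led by the gamma subunits Gng3 (at least 5.35-fold, adjusted p = 0.0486) and Gng2 (2.00 ± 0.33, adjusted p = 0.00112), the alpha subunit Gna14 (at least 4.44-fold, adjusted p = 0.0072) and the receptor kinase Grk6 (1.60 ± 0.32, adjusted p = 0.00335). Gng3 varied between 3.67 and 9.60 on quiescent arrays and did not pass when each probe set was tested with no filter. The lower genes were led by the gamma subunit Gng11 (-3.34 ± 0.51, adjusted p = 0.0008), the cyclases Adcy5 (-2.14 ± 0.61, adjusted p = 0.0209) and Adcy2 (-1.84 ± 0.34, adjusted p = 0.00227), and the arrestin Arrb1 (-1.96 ± 0.40, adjusted p = 0.004). On median-centred arrays, and on arrays scaled to the hybridisation controls, 3 were lower and 10 higher, and without activated array 2 the higher count was 4.

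The genes most like the called ones were found by the root mean square difference of the 6 array signals after each gene was centred on its own mean, among the other 11575 tested genes. For S1pr1 these were Pfkp, a phosphofructokinase (0.183), Slc13a3, a dicarboxylate transporter (0.193), and Rarres2, which encodes the secreted protein chemerin (0.200). For Sphk2 they were Pbxip1 (0.243), Rapgef3, a Rap activator that is switched on by cyclic AMP (0.269), and the noncoding Dio3os (0.280). For Ptgds they were Loxl1, a lysyl oxidase of the extracellular matrix (0.305), Nmrk1 (0.325) and Plekho2 (0.328). These values describe 6 arrays that fall into 2 groups, so they describe the arrays and nothing beyond them.

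The remaining marker lists describe the populations as a whole. Proliferation markers were higher in activated cells in all 9 tested cases and neuroblast markers in 5 of 9, with 0 lower in either list. Of 4 tested oligodendrocyte precursor genes 1 was higher, and of 3 tested ependymal genes 2 were lower. Microglia and blood leukocyte markers had 2 tested genes of 12, with 0 called, and of 2 tested red blood cell genes Hba-a2 was higher. The brightest genes in activated cells and in quiescent cells were Pcna in both for proliferation, Dlx2 in both for neuroblasts, Slc1a2 and Gja1 for the astrocyte list, Cnp in both for oligodendrocytes, Olig2 and Cspg4 for their precursors and Ogn and Col1a1 for leptomeninges. They were Itm2a in both for endothelium, Pdgfrb in both for pericytes, Cfap126 and Rsph1 for ependyma, and Cd68 and P2ry12 for microglia.

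How far the differences of the tested genes depend on the processing is shown by the plot of alternatives. S1pr1 stayed called in all 21 alternatives, with differences of -3.61 to -2.82. Sphk2 stayed called in 21 of 22, the exception being 1417431_a_at alone. Ptgds was lower in all 22 and called in 12 of them. S1pr2 and Sgpl1 were called in 0 of their alternatives. When arrays were scaled to their hybridisation controls the median difference of all genes moved to 0.66, against 0.01 as deposited, and on that scale S1pr1 differed by -2.82 (adjusted p = 0.000183), Sphk2 by -2.73 (adjusted p = 0.000786) and Ptgds by -1.0 (adjusted p = 0.246).

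**Figure D4:**
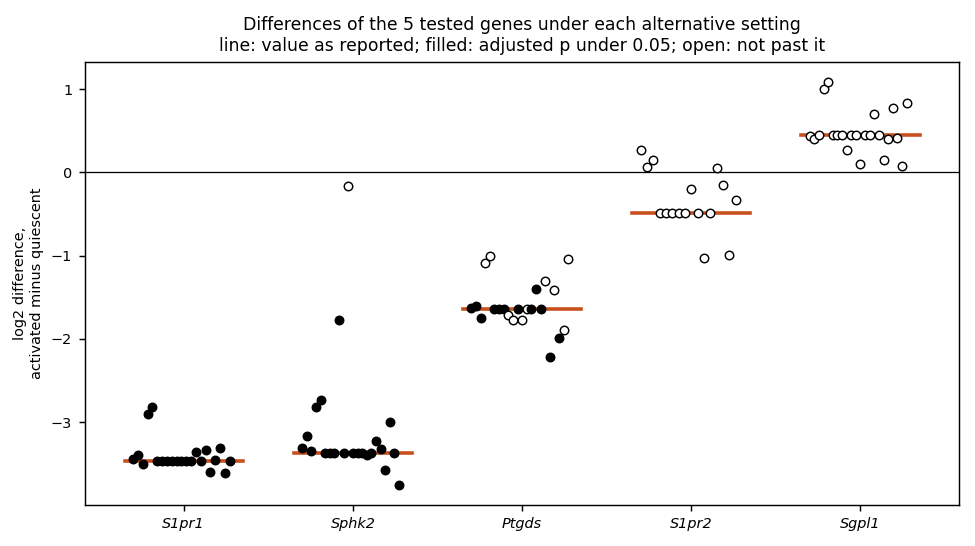
Log2 difference, activated minus quiescent, of the 5 tested genes under each alternative setting. Circles are alternatives, filled where the adjusted p was under 0.05 and open where it was not, and the line is the value as reported. S1pr1 runs from -3.61 to -2.82, all filled, Ptgds from -2.21 to -1.0 with 12 filled, and S1pr2 lies on both sides of 0.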

How the data were processed

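RNA of activated and quiescent neural stem cells was hybridised to 6 one-colour Affymetrix arrays, 3 of each population, with groups and replicate numbers from the sample titles. Per the labels' protocols, miRNeasy kits gave the RNA, which NuGEN Pico reagents amplified before biotin labelling. The deposited values are log2 signals. Per the submitters' processing notes, the authors used MAS5, and their linear 2% trimmed mean was 500.0 on every array. The sources used here give no version. Scaling to a common mean removes differences in total RNA per cell, and MAS5 signals near background are noisy.

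Values were used as deposited, without the pseudocount provided for linear values. Leaving aside 64 control probe sets, 34945 were annotated to 1 gene, 932 to several and 9160 to none. Entrez identifiers gave current symbols in a RefSeq table of GRCm38.p6 (99.4% found). The brightest probe set stood for a gene, and genes with a mean of at least 6.02, the 40th percentile over probe sets, were tested with lmFit and a trended eBayes in limma 3.58.1 under R 4.3.3. The fit was tested on simulated data. Figures were drawn with matplotlib 3.10.9.

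The 9 genes and all gene lists were chosen with earlier results of these data known. Named were the 9 genes, up to 4 called genes per pathway list and direction by size of difference, the other receptors of S1P and prostaglandins, the brightest gene of each marker list per group and the 3 genes most like each called gene. Egfr, Gfap, Cd24a, Cldn5, Ttr, Kcnj13, Otx2, Col1a2, Lum, Col3a1, Pdgfra and Igf2 were named after their values were seen. The p-values measure the spread between samples called biological replicates. The alternatives changed the pseudocount, scaling, filter on dim genes, choice of probe set and variance model, blocked on the replicate number, or left out 1 array. Testing each probe set with no filter was chosen after seeing the data. The main fit did not pair the samples, and the titles name no pairing. Deviations of same-numbered arrays from their group means correlated by -0.02 to 0.06, and those of differently numbered arrays by -0.08 to 0.05. With 3 arrays a group this cannot decide whether same-numbered samples were prepared together. Arrays were correlated at 0.895 to 0.903 among activated, 0.834 to 0.861 among quiescent arrays and 0.742 to 0.804 between groups, and 0 pairs held identical values.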

Additional observations from a re-analysis of the deposited data

How the results depend on the processing

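The difference of S1pr1 kept its direction and its call in the 21 alternatives run. Sphk2 kept its call in 21 of 22, nearly all of them resting on 1426230_at alone, so they do not describe the gene as a whole. Ptgds kept its direction and lost its call in 10 of 22, among them eBayes without a trend (adjusted p = 0.0917), arrays centred on their median (adjusted p = 0.143) and its probe sets averaged (adjusted p = 0.0599). The difference of S1pr2, which was never called, turned to 0.27 after quantile normalization, 0.063 with arrays centred on their median and 0.15 after scaling to the hybridisation controls, and ran from -1.03 to 0.052 with an array left out. The cause was not tested. Centring on the median gave 3527 higher and 1191 lower genes and scaling to the hybridisation controls 3059 higher and 943 lower, so that 74.8% and 76.4% of calls were higher, against 49.6% as deposited. Testing every probe set on its own gave 3523 higher and 3690 lower calls among 22608 probe sets. With no filter there were 3386 and 4343 among 34945, so that 12.4% were called lower. Of the 16 probe sets of the 9 genes 5 were then called lower, against 3 of the genes themselves in the main fit. Those of S1pr3 and Ptgdr had activated arrays at background. More features were tested than in the main fit. With an array left out 1313 to 2440 genes were higher, the fewest without activated array 2, and 1540 to 2176 lower, and 2 or 3 of the 9 genes were lower. With the replicate block 1955 genes were higher and 1979 lower, and S1pr1 (adjusted p = 0.000117), Sphk2 (adjusted p = 0.000474) and Ptgds (adjusted p = 0.0337) remained called. Signal over background limits Sphk1, S1pr3, Ptgdr and Ptgdr2, and values at background have no order among themselves.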
